A study of Mus musculus with 5 samples.

Results

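Potassium channel genes were described by the H3K9ac peaks that lie near their starts. The members are the protein-coding genes of the GENCODE vM1 annotation (mm9 mouse genome) whose symbols begin with Kcn. They make up 96 gene records with 94 symbols, of 22380 protein-coding genes, because Kcnb2 and Kcnh8 are each annotated as 2 records. Peaks were given to a gene if their centres were no more than 10 kb from one of its annotated transcript starts. By this rule 58 of the 34286 peaks listed for DOP-treated cells and 58 of the 33355 peaks listed for untreated, serum-starved cells (SST) lay near a Kcn gene. Distances to a gene are given below to its nearest annotated start. For a gene with several starts, a place upstream of that start can thus be inside the gene.

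The series measured acetylation of lysine 9 of histone H3 by chromatin immunoprecipitation and sequencing in striatal progenitor cells of mouse strain C57BL/6. All of the cells carried the STHdhQ111/Q111 genotype, in which both copies of the huntingtin gene hold a lengthened CAG repeat, and no wild-type cells are among the samples, so every value below is from mutant cells. The 2 DOP samples received 4 mM 4-deoxypyridoxine hydrochloride in serum-free medium for 24 h, and the 2 SST samples received serum-free medium with the vehicle for the same time. 4-Deoxypyridoxine inhibits sphingosine-1-phosphate lyase, the enzyme that breaks down sphingosine-1-phosphate, and the DOP and SST lists address what it changes in H3K9ac. One more library, from serum-starved cells, was made with normal rabbit IgG. The cells are an immortalized line and not neurons in tissue.

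Potassium channels let potassium ions leave or enter cells and set the resting potential, the shape of the action potential and the firing rate. Most are built from pore-forming subunits, to which auxiliary subunits attach, and neurons of different types carry different combinations. In the adult striatum, medium spiny neurons depend on inward rectifiers for a strongly negative resting state and on A-type voltage-gated channels for slow firing. H3K9ac is found at starts of genes that are active or poised. A peak of the mark is not a measurement of RNA or of current.

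Each condition has 1 deposited list, so the lists carry no replicate error and no test of DOP against SST could be made. Each peak has a score whose definition is not given in the sources used here. The median score was 418.7 in the DOP list and 399.8 in the SST list, and scores are therefore given as the percentile among all peaks of the same list. The depth behind a peak is unknown from the lists. Intervals are 95% Wilson intervals and cover counting error only, and genes are not replicates of a condition. Of 6 neural progenitor marker genes, 3 (Vim, Notch1 and Cdh2) had a peak within 10 kb in both lists and Nes, Sox2 and Pax6 had none. Of 7 genes of mature medium spiny neurons, Ppp1r1b alone had one. These marker counts were not split by nearest start, so a peak can belong to a neighbour.

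A few of the peaks show what the lists hold at the starts of Kcn genes. All are 200 bp long, in coordinates of NCBIM37 (mm9), read 5' to 3' on the strand of the gene, with each CG in capitals. The first pair, at Kcnj4 and Kcnk10, are peaks that both lists share. The next 3 are peaks of 1 list, at Kcnh3, Kcnj10 and Kcnj2.
Kcnj4, DOP list, chr15:79336086-79336285, minus strand: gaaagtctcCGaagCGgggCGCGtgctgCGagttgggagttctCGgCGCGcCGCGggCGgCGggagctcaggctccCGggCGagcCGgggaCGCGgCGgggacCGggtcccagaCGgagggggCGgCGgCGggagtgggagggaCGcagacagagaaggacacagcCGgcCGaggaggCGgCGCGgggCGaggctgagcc
Kcnk10, DOP list, chr12:99812941-99813140, minus strand: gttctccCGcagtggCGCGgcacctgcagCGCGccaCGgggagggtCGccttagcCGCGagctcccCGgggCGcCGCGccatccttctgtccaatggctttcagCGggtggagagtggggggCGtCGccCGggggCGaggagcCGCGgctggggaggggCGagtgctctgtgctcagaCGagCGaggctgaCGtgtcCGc
Kcnh3, DOP list, chr15:99054571-99054770, plus strand: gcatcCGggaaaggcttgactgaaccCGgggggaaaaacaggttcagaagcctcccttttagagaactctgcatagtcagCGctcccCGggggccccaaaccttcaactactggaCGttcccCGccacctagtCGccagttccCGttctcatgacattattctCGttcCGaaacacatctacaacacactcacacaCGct
Kcnj10, SST list, chr1:174271021-174271220, plus strand: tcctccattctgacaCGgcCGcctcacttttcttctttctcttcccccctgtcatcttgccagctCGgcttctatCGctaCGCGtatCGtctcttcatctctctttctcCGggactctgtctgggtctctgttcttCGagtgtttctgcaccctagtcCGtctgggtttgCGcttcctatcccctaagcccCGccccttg
Kcnj2, SST list, chr11:110927020-110927219, plus strand: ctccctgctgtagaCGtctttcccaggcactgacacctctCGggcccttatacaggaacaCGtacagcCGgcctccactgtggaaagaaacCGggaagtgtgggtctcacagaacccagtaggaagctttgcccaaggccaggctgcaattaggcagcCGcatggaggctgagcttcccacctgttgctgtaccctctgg

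The Kcnj4 sequence holds 30 CG pairs at 77.5% G and C, and the Kcnk10 sequence holds 25 at 74.0%. The Kcnh3 and Kcnj10 sequences hold 11 and 12, and the Kcnj2 sequence holds 6.

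Fewer Kcn genes than protein-coding genes at large had a peak. A DOP peak lay within 10 kb of 22 of the 96 genes, which is 22.9% (15.6 to 32.3%), against 57.7% of all protein-coding genes. An SST peak lay near 25 genes, or 26.0%, against 56.9% of all genes. The interval for the Kcn genes did not reach the level of all genes in either list. Both lists held a peak for 18 genes, the DOP list alone for 4 and the SST list alone for 7, and 67 records had no peak in either. Over all protein-coding genes 2.39% had a peak in the DOP list alone and 1.62% in the SST list alone. The order of the one-list counts depended on low scores: with scores of at least 100 the DOP list alone had 3 Kcn genes and the SST list alone 1, and by the higher-scoring 50% of the lists these counts became 1 and 0.

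**Figure D1:**
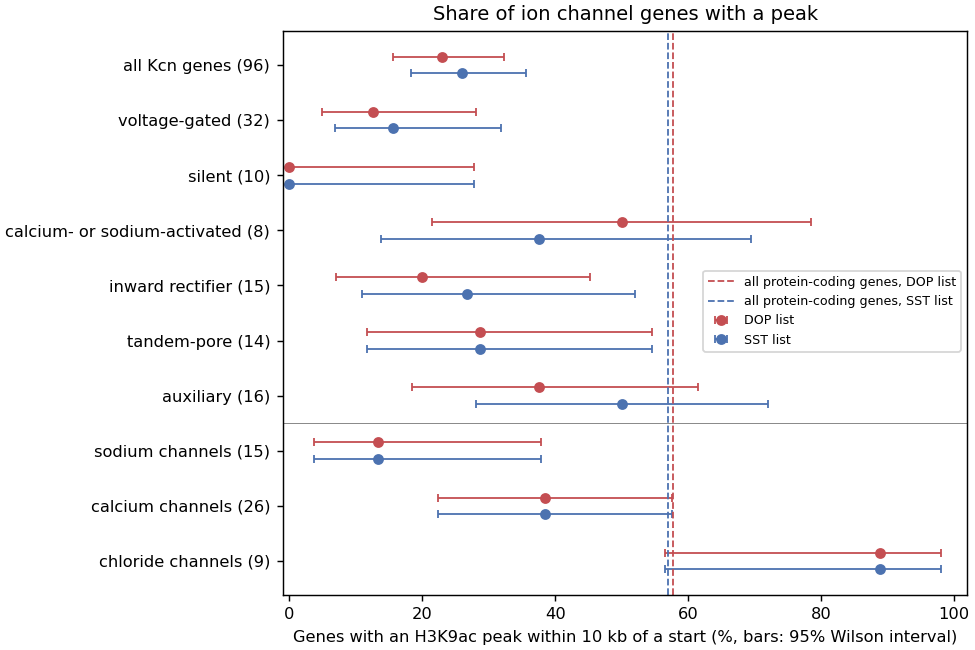
Share of genes with an H3K9ac peak within 10 kb of a start, in percent, for the Kcn genes by role and for other ion channel families. Points are the shares in the DOP (red) and SST (blue) lists, bars are 95% Wilson intervals, dashed lines are the shares of all protein-coding genes (57.7% and 56.9%), and numbers in brackets are genes. The silent subunits sit at 0, and the calcium- or sodium-activated and auxiliary groups reach 50% in 1 list.

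The largest class, the 32 voltage-gated pore subunit records (Kcna, Kcnb, Kcnc, Kcnd, Kcnh and Kcnq), opens on depolarization and ends the action potential. Of these, 4 (12.5%) had a DOP peak and 5 (15.6%) an SST peak. They included Kcna7 and Kcnh2 in both lists, Kcna4 and Kcnh3 in the DOP list alone, and Kcnh4 among those in the SST list alone. No peak lay near Kcnd1, Kcnd2 and Kcnd3, which encode A-type channels. Other voltage-gated genes with no peak included Kcna1, Kcna2, Kcna3, Kcna5, Kcna6, Kcna10, Kcnc1, Kcnc2, Kcnc4, Kcnh1, Kcnh5, Kcnh6, Kcnh7, Kcnh8, Kcnq1, Kcnq3 and Kcnq5.

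Kcnh2 encodes the ERG channel that repolarizes the heart. It had 5 peaks in the DOP list and 1 in the SST list, and the lists shared the peak at its start. That peak stood 21 bp upstream at percentile 8.71 in the DOP list and 49 bp downstream at percentile 9.69 in the SST list. A further DOP peak 417 bp upstream of the same start was at percentile 0.707, near the bottom of the list. The rest lay in introns and were nearest to other starts, inside the gene. One of these, 1810 bp downstream of such a start, reached percentile 22.2. Those 5092 and 5479 bp upstream of such a start were at percentiles 1.18 and 2.0, also near the bottom.

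Kcnh3, of the same EAG family and expressed in forebrain, had DOP peaks 848 and 622 bp upstream at percentiles 21.6 and 21.3, and the nearest SST peak centres were 27361 and 27135 bp away. Kcna4, an A-type channel of axons, had a DOP peak 128 bp downstream, in its 5' UTR, at percentile 12.5. The SST list had its nearest peak to that one 62202 bp off. The SST peak assigned to Kcnh4, a further EAG-family channel, lay 1857 bp upstream and nearer to the start of Hcrt.

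The 10 silent subunits (Kcnf1, Kcng1 to Kcng4, Kcns1 to Kcns3, Kcnv1 and Kcnv2) do not form channels alone and change the gating of other voltage-gated channels. None had a peak in either list, and with 10 genes the upper limit of the interval is 27.8%.

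Among the 8 channels opened by calcium or sodium, 4 (50%) had a DOP peak and 3 (37.5%) an SST peak. Kcnn4 is the intermediate-conductance channel of blood cells and epithelia. It had a shared peak 24 bp (DOP) and 33 bp (SST) downstream of a start inside the gene, at percentiles 39.6 and 27.7. Kcnn1, a small-conductance channel behind the afterhyperpolarization, had a shared peak 168 (DOP) and 139 bp (SST) downstream at percentiles 11.1 and 10.6. The other 4 DOP and 2 SST peaks in its window were nearer to A230052G05Rik. Kcnn3, a further small-conductance channel, had a DOP peak alone, 6590 bp downstream in an intron at percentile 5.59. Kcnu1, a sperm channel, had 4 peaks in each list, and all of them were nearest to Ash2l. Kcnma1, the large-conductance channel, was 403007 bp from the nearest DOP peak and 441910 bp from the nearest SST peak, and Kcnn2, Kcnt1 and Kcnt2 also had none.

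Inward rectifiers pass current most readily into the cell and hold the resting potential. Of the 15 Kcnj genes 3 (20%) had a DOP peak and 4 (26.7%) an SST peak: Kcnj2, Kcnj4 and Kcnj14 in both lists, and Kcnj10 in the SST list alone. Kcnj2 and Kcnj4 encode Kir2.1 and Kir2.3, the classical rectifiers of striatal neurons. Kcnj2 had 1 DOP peak, 298 bp downstream of its start at percentile 53.8, and 4 SST peaks. The SST peaks lay 916 and 359 bp upstream, at percentiles 40.4 and 59.4, and 254 and 626 bp downstream, at 53.2 and 35.8. The peak 254 bp downstream overlapped the DOP peak and the other 3 overlapped none, so the SST peaks covered more of the Kcnj2 start.

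Kcnj4 had the shared peak printed above, 514 bp upstream at percentile 37.5 in the DOP list and 537 bp upstream at percentile 34.5 in the SST list. A further pair of DOP peaks, 6433 and 6807 bp upstream, was nearer to Kdelr3. Kcnj10, the Kir4.1 channel of astrocytes, had an SST peak 221 bp upstream at percentile 3.15, with the nearest DOP peak 28358 bp away. Every peak near Kcnj14 was nearest to Cyth2 or Grwd1. No peak lay near Kcnj1, Kcnj3, Kcnj5, Kcnj6, Kcnj8, Kcnj9, Kcnj11, Kcnj12, Kcnj13, Kcnj15 and Kcnj16, which include the G-protein-gated subunits (Kcnj3, Kcnj5, Kcnj6 and Kcnj9) and those of ATP-sensitive channels (Kcnj8 and Kcnj11).

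Tandem-pore channels carry the background leak current. Of the 14 Kcnk genes 4 (28.6%) had a peak in the DOP list and 4 in the SST list. Kcnk10, a mechanosensitive TREK channel, had the shared peak printed above, upstream of a start inside the gene. That peak lay 118 bp from this start at percentile 12.1 (DOP) and 101 bp from it at percentile 12.8 (SST). Kcnk2, a relative of Kcnk10, had an SST peak alone, 333 bp downstream in the 5' UTR at percentile 2.66. Kcnk6 had a DOP peak 29 bp downstream at percentile 6.25, with no SST peak overlapping it, and all its other peaks were nearer to Yif1b. Kcnk7 had a DOP peak alone, 255 bp downstream at percentile 8.77. Kcnk4 had the highest peak of the family in both lists, at percentiles 96 and 98.1, but its peaks were nearest to Bad and Gpr137. Kcnk1, Kcnk3, Kcnk5, Kcnk9, Kcnk12, Kcnk13, Kcnk15, Kcnk16 and Kcnk18 had none.

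Auxiliary subunits had the larger share: 6 of 16 (37.5%) in the DOP list and 8 (50%) in the SST list, against 15 (19.0%) and 16 (20.3%) of the 79 pore-forming records. They are small partners that do not conduct and alter gating or traffic. Of the Kcnab subunits, which bind Kcna channels inside the cell, Kcnab2 and Kcnab3 had peaks in both lists and Kcnab1 had none, with the nearest peak 37914 bp (DOP) and 38215 bp (SST) away. Kcnab2 shares its start region with Nphp4. Its peak closest to its own start was 9 bp downstream in the DOP list at percentile 47.1 and 80 bp upstream in the SST list at percentile 65.7. Kcnab3 had 5 DOP and 7 SST peaks, of which 2 and 5 were nearest to its own start. Its highest, at percentiles 88.7 and 84.4, were nearest to Cntrob.

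Kcnip3 is a calcium-binding subunit of A-type channels that is also known as the DREAM repressor. It had a shared peak 149 bp (DOP) and 201 bp (SST) downstream of a start inside the gene, at percentiles 32.2 and 33.7. Kcnip2, which partners Kcnd2 in striatum, had an SST peak alone, in an intron 6455 bp upstream of a start inside the gene, at percentile 4.30. Kcnmb4, the neuronal subunit of Kcnma1, had a pair of peaks at 2 starts in each list, at percentiles 20.2 and 24.3 in the DOP list and 25 and 19.4 in the SST list. Kcnmb3 had a shared peak 4646 bp (DOP) and 4605 bp (SST) upstream, at percentiles 40.3 and 27. Kcne2 had peaks in both lists that were nearest to Fam165b, and Kcne1l had an SST peak alone, 8390 bp downstream at percentile 3.86. Kcne1, Kcne3, Kcne4, Kcnip1, Kcnip4, Kcnmb1 and Kcnmb2 had none. Kcnrg, a regulator of Kcna channels that is no subunit, had 1 peak in each list, nearest to Trim13.

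Since Kcn genes share their windows with neighbours, the peaks were divided by the protein-coding gene whose start was nearest. In the DOP list 28 peaks at 16 genes were nearest to the Kcn start and 30 peaks at 11 genes to another start, and in the SST list the split was 31 at 17 genes and 27 at 11 genes. The peaks nearest to a Kcn start had a median percentile of 21.9 (DOP) and 19.4 (SST), with 3 and 4 of them above percentile 50. Those nearest to another gene had medians of 47.9 and 47.6, with 14 and 12 above percentile 50. Among the 29 Kcn genes with peaks, 7 had only peaks nearest to another gene: Kcna7, Kcne2, Kcnh4, Kcnj14, Kcnk4, Kcnrg and Kcnu1.

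**Figure D2:**
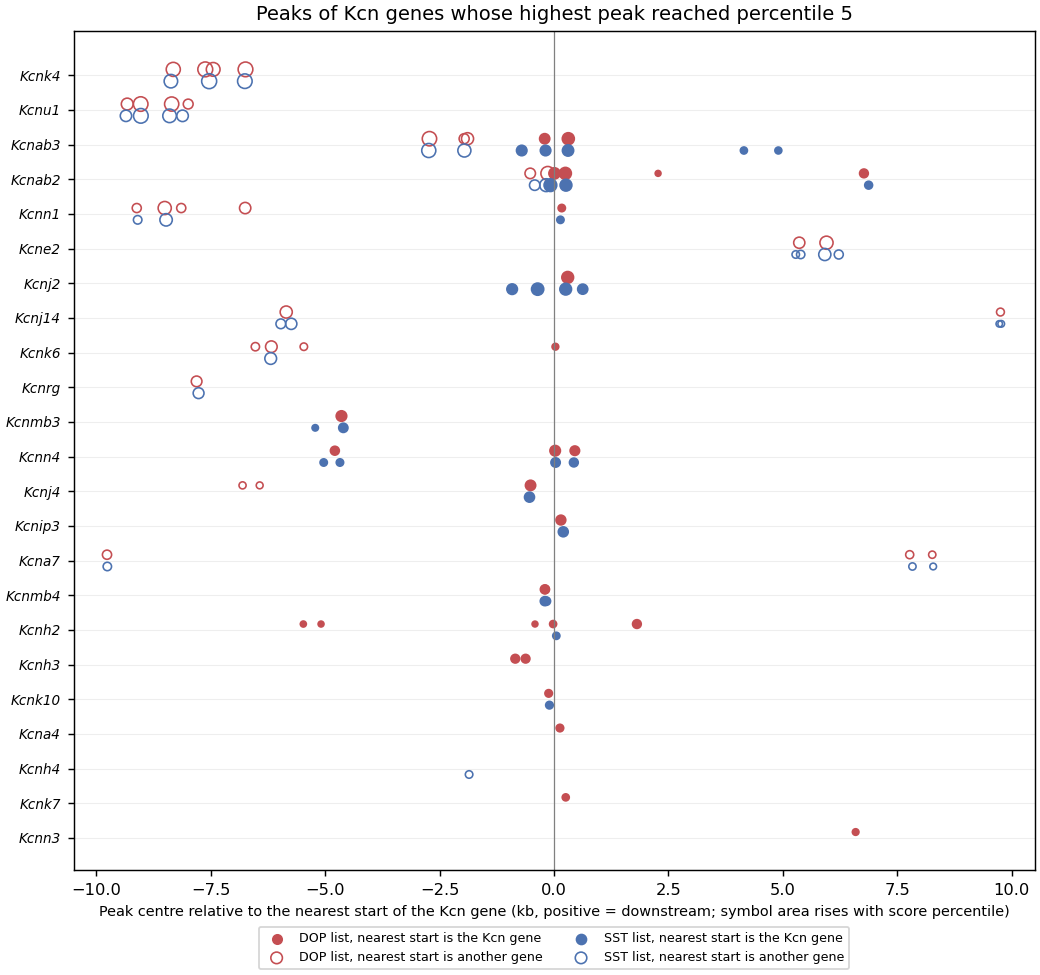
Position of every peak assigned to the 23 Kcn genes, of 29 with a peak, whose highest peak reached percentile 5, in kb from the nearest start of the gene, with positive values downstream. Each symbol is 1 peak of the DOP (red) or SST (blue) list, its area grows with the score percentile, and open symbols are peaks nearer to the start of another gene. The large symbols of Kcnk4 and Kcnu1 are open, and filled symbols gather at 0 kb.

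An own-promoter peak was defined as one within 1 kb of a Kcn start with no other gene's start nearer. The DOP list had such a peak for 14 Kcn genes (14.6%) and the SST list for 14 (14.6%), against 49.8% and 49.1% of all protein-coding genes. The 10 genes with one in both lists were Kcnab2, Kcnab3, Kcnh2, Kcnip3, Kcnj2, Kcnj4, Kcnk10, Kcnmb4, Kcnn1 and Kcnn4. The DOP list alone had one at Kcna4, Kcnh3, Kcnk6 and Kcnk7, and the SST list alone at 4 genes, Kcnj10 and Kcnk2 among them. These 4 and 4 of 96 stand beside 2.16% of all protein-coding genes with an own-promoter peak in the DOP list alone and 1.49% in the SST list alone. With scores of at least 100, the own-promoter counts were 11 (DOP) and 8 (SST), so the equal totals hold for the full lists.

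Peaks near Kcn genes ranked low in both lists. Their median percentile was 30.8 in the DOP list and 27.4 in the SST list, against 55.2 and 55.1 for peaks near any protein-coding gene. By the highest peak of each gene, the median percentile was 39.9 (DOP) and 27.7 (SST) for Kcn genes with a peak, against 78.4 and 77.3 for all genes with one. The highest peak was in the top 10% of the list for 2 of 22 Kcn genes in the DOP list (9.09%) and 2 of 25 in the SST list (8.0%), beside 27.3% and 26.6% of all genes with a peak. In each list they were Kcnk4 and Kcnu1, whose peaks were nearest to Bad, Gpr137 and Ash2l. A Kcn gene with a peak had a median of 2 peaks (DOP) or 1 (SST), and a gene at large had 3 in each list.

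**Figure D3:**
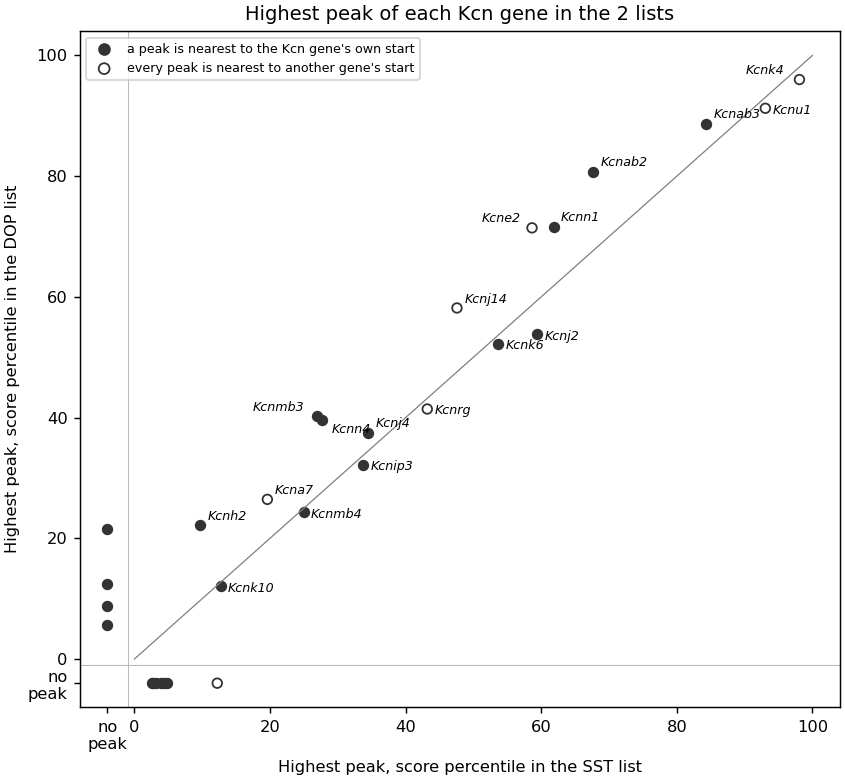
Highest peak of each Kcn gene, as the score percentile in the SST list (horizontal) and in the DOP list (vertical), with genes that had no peak in a list set apart at the margins. Open symbols are genes whose every peak was nearest to another gene's start, and the line marks equal percentiles. The 18 genes with peaks in both lists lie along the line, 10 above it and 8 below, and the 11 genes of 1 list lie at percentile 21.6 or lower.

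Peaks in 1 list alone, meaning those that overlapped no peak of the other list by 1 bp or more, made up 17 of 58 DOP peaks near Kcn genes, or 29.3% (19.2 to 42%), and 16 of 58 SST peaks, or 27.6% (17.8 to 40.2%). Over all peaks 20.0% of DOP and 16.7% of SST peaks overlapped none of the other list, and over those near any protein-coding gene 16.2% and 13.3%. With scores of at least 100, 12 of 48 DOP peaks near Kcn genes (25%) and 6 of 42 SST peaks (14.3%) were of 1 list, beside 15.8% and 11.3% of all such peaks. The peaks of 1 list were low: their median percentile was 9.1 (DOP) and 8.54 (SST), against 40.3 and 36.6 for shared peaks. The highest among them was the Kcnn1-window peak at percentile 48.6 in the DOP list, which lies nearer to A230052G05Rik, and the Kcnj2 peak at percentile 59.4 in the SST list. Among peaks nearest to a Kcn start, 11 of 28 DOP peaks (39.3%) and 14 of 31 SST peaks (45.2%) were of 1 list, and among those nearest to another gene 6 of 30 (20%) and 2 of 27 (7.41%).

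More peaks were listed in DOP for 10 genes and in SST for 13, with equal numbers for 6, and over all protein-coding genes 19.3% had more in DOP and 16.9% had more in SST. This order turned when only peaks with a score of at least 100 were used: 7 genes then had more in DOP and 3 more in SST. It also turned with the top 50% of each list, to 3 and 2. Differences of 2 peaks or more were found for Kcnh2 (5 in DOP and 1 in SST), Kcnk6 (4 and 1), Kcnh3 (2 and 0), Kcnj4 (3 and 1), Kcnn1 (5 and 3), Kcnj2 (1 and 4), Kcnab3 (5 and 7), Kcne2 (2 and 4) and Kcnj14 (2 and 4). Several of these differences came from peaks nearest to another gene. By peaks nearest to the Kcn start, Kcnh2 had 5 in DOP and 1 in SST, Kcnh3 2 and 0, Kcnj2 1 and 4, and Kcnab3 2 and 5. By the same count Kcnk6 had 1 and 0, Kcnj4 and Kcnn1 had 1 and 1, and Kcne2 and Kcnj14 had 0 and 0. The 12 peaks of the 11 genes seen in 1 list lay between percentiles 2.66 and 21.6. Their scores were under 100 for 2 of the 4 DOP genes and 6 of the 7 SST genes, and the nearest peak of the other list was between 9022 and 68674 bp away.

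For the 18 genes with peaks in both lists, the percentile of the highest peak was higher in DOP for 10 (55.6%) and higher in SST for 8, and over 12375 genes with peaks in both lists it was higher in DOP for 56.1%. The median difference, DOP minus SST, was 3.68 percentile points for the Kcn genes (range -5.65 to 13.3) and 0.63 for all genes. The highest peak was not always the same peak in both lists, and for some genes it was nearest to a neighbour. Kcnh2 was higher in DOP by its highest peak, while its shared start peak was at percentile 8.71 in DOP and 9.69 in SST. Kcnab2 was higher in DOP by peaks nearest to Nphp4. These lay 137 bp (DOP) and 173 bp (SST) from the Kcnab2 start, and 134 and 98 bp from that of Nphp4. Its highest own-nearest peaks, at 56.7 in DOP and 65.7 in SST, were different peaks. The DOP one overlapped an SST peak at 54.7, and the SST one lay 57 bp from the DOP peak at 80.7. Kcnj2 was higher in SST by its highest peak, while its shared peak was at 53.8 and 53.2.

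By position, 22 of the DOP peaks (37.9%) and 24 of the SST peaks (41.4%) were within 1 kb of the Kcn start, and 20 (34.5%) and 23 (39.7%) were downstream of it. In the annotation of protein-coding genes, whether Kcn or neighbour, 23 DOP peak centres were in introns, 17 outside genes, 10 in 5' UTRs, 7 in coding exons and 1 in a 3' UTR. The SST peaks gave 22, 20, 8, 8 and 0.

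The 67 records with no peak differed widely in how far the nearest one lay. Neither these distances nor peaks in gene bodies were taken for other genes with no peak, so no background stands beside them. The median distance from their starts to the nearest peak was 93576 bp in the DOP list and 109767 bp in the SST list, and 30 were more than 100 kb away in both. The farthest was Kcnj3, at 1677545 and 998590 bp, and Kcnd2, an A-type channel of medium spiny neurons, was at 636446 and 636348 bp. Just outside the 10 kb limit stood Kcnj9 (16632 bp in DOP and 11726 bp in SST), Kcnip1 (17598 and 329951 bp), Kcnd3 (18131 and 18099 bp) and Kcnh6 (18242 and 18253 bp), and just inside it stood the peaks of Kcna7, 9769 bp upstream in DOP and 9762 bp in SST. Within the gene bodies of the 67, a peak was found in 4: Kcnh6 in both lists, Kcnq1 in both, Kcnip1 in the DOP list and Kcnq5 in the SST list.

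**Figure D4:**
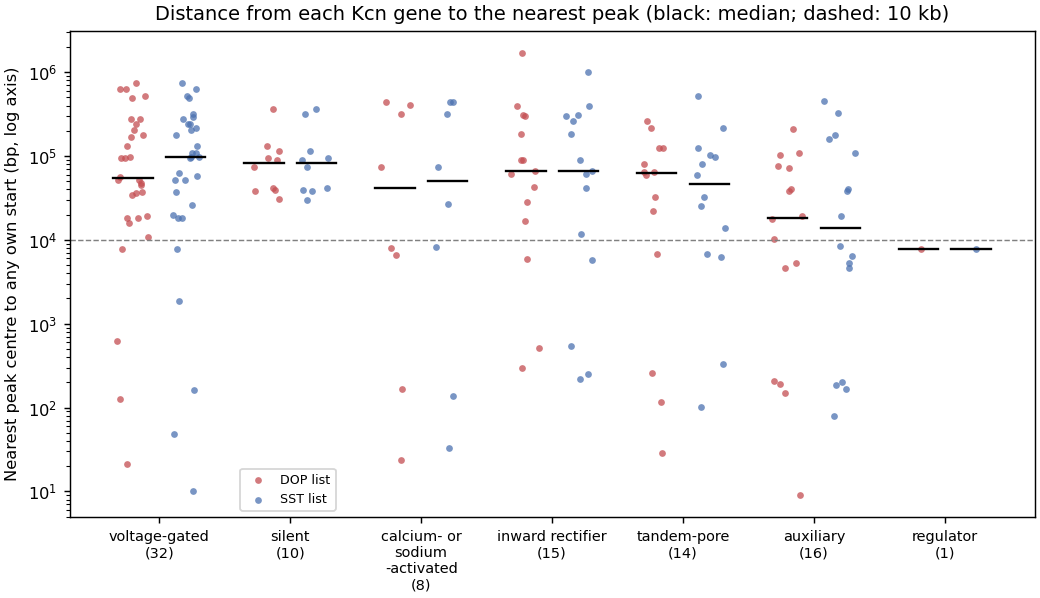
Distance from each of the 96 Kcn records to the nearest peak centre, on a log axis in bp, by role. Each point is a record in the DOP (red) or SST (blue) list, the black line is the median of the group, and the dashed line is the 10 kb limit. The silent subunits all lie above the limit, and the auxiliary subunits have the lowest medians among groups with more than 1 record.

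Other ion channel families differed from one another in the same lists. Their counts take any peak within 10 kb and, unlike those of the Kcn genes, were not split by nearest start. Of 15 sodium channel records (Scn, the pore and beta subunits that start the action potential) 2 had a peak in each list (13.3%), among them Scn2a1. That gene entered the list after values were seen, and without it the count was 1 of 14 (7.14%). Of 26 calcium channel genes (Cacna1, Cacna2d, Cacnb and Cacng) 10 had a peak in each list (38.5%), and all 4 Cacnb genes were among them. Of 9 chloride channel genes of the Clcn family, whose members act at the cell surface or in endosomes and lysosomes, 8 had a peak in each (88.9%). Among 17 partners of potassium channels, which include the Hcn pacemaker channels and the Dpp and Cntnap proteins, 4 (23.5%) had a DOP peak and 5 (29.4%) an SST peak: Amigo1, Cntnap1, Hcn2 and Hcn3 in both lists and Hcn4 in the SST list.

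Since H3K9ac is common at starts rich in CG pairs, the starts of the Kcn genes were compared by their observed to expected CG ratio from 500 bp before to 500 bp after the outermost start. The median ratio was 0.477 for Kcn genes and 0.549 for all protein-coding genes, and the median G and C content was 58.2% and 54.7%. Over all genes it was 0.717 with a peak in either list and 0.222 without one. Among Kcn genes it was 0.445 with a peak and 0.522 without one, which is the other order. Of these 29 Kcn genes with a peak, however, 7 had only peaks nearest to another gene. For the 18 with an own-promoter peak the median was 0.655, against 0.454 for the other 78. By own-promoter peaks the Kcn genes thus had the higher ratio with a peak, as all genes did. An own-promoter peak can lie at another start than the outermost one, where the ratio was taken. This was so for Kcnk10 (ratio 0.437) and Kcnip3 (0.249).

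A ratio of 0.6 or more was found at 39 Kcn starts (40.6%) and at 45.6% of all starts. Of the 39, 7 had a DOP peak, or 17.9% (8.98 to 32.7%), and 10 an SST peak, or 25.6% (14.6 to 41.1%). Among the 10172 other protein-coding genes with such a ratio 88.6% and 88.2% had one. At this ratio, Kcn genes holding a peak included Kcnmb4 (1.04), Kcnh2 (0.812), Kcnj4 (0.776), Kcnk6 (0.774), Kcnab2 (0.768), Kcnab3 (0.712), Kcnh3 (0.707), Kcnk2 (0.693), Kcnh4 (0.677) and Kcnj10 (0.648). The 28 without one included Kcng3 (0.957), Kcnj12 (0.922) and Kcnd3 (0.874), the M-current subunit Kcnq3 (0.811) and the striatal Kcnd2 (0.80).

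**Figure D5:**
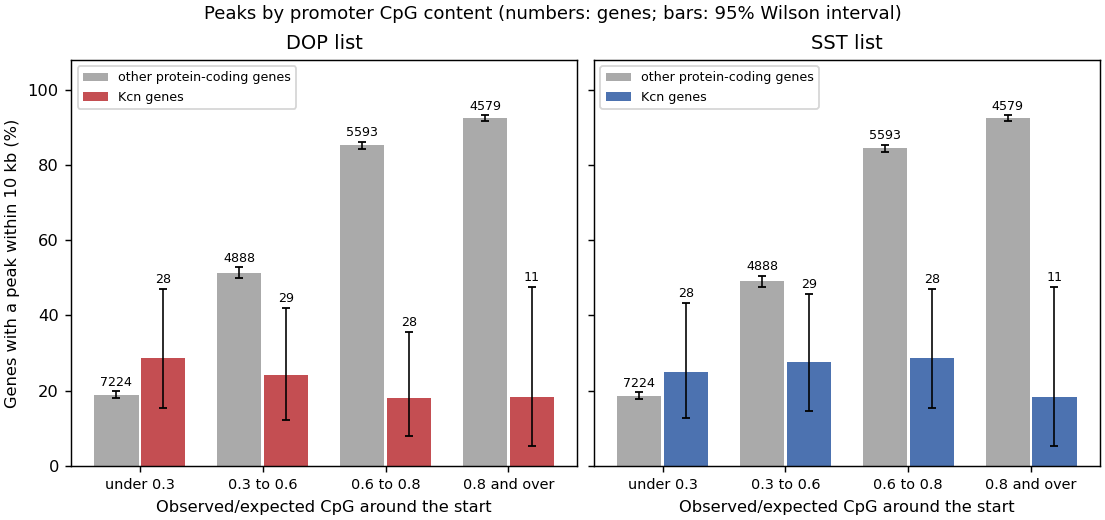
Share of genes with a peak within 10 kb, in percent, by the observed to expected CG ratio around the outermost start, for Kcn genes (colour) and other protein-coding genes (grey) in the DOP list (left) and the SST list (right). Bars start at 0, whiskers are 95% Wilson intervals, and the numbers are genes. Other genes go from 18.8% to 92.6% in the DOP list as the ratio grows, while the Kcn shares, which count peaks nearest to neighbours too, lie between 17.9% and 28.6%.

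Below a ratio of 0.3 the shares of Kcn genes were 28.6% (DOP) and 25% (SST) of 28, beside 18.8% and 18.6% of other genes, which lie inside the intervals of the Kcn shares. From 0.3 to 0.6 they were 24.1% and 27.6% of 29, beside 51.4% and 49.1%. From 0.6 to 0.8 they were 17.9% and 28.6% of 28, beside 85.4% and 84.6%, and from 0.8 they were 18.2% in both lists of 11, beside 92.6%. These shares include peaks nearest to neighbours. By own-promoter peaks the Kcn shares over the same 4 classes were 10.7, 13.8, 17.9 and 18.2% in the DOP list and 7.14, 13.8, 21.4 and 18.2% in the SST list. Those of other genes were 7.97, 40.8, 80.1 and 89.1% in the DOP list and 7.86, 38.8, 79.5 and 88.9% in the SST list. By both measures the Kcn shares lay below those of other genes in each class from a ratio of 0.3. Under 0.3 they were higher than those of other genes or close to them.

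Short motifs at the same starts were counted as a description. The letters TATAAA, looked for on the gene strand from 40 to 20 bp before the start, were found at 2 Kcn genes (2.08%), beside 2.27% of all genes. The letters GGGCGG, on either strand from 250 bp before to 50 bp after, were found at 49 (51.0%), beside 43.4% of all genes, and at 14 of the 18 Kcn genes with an own-promoter peak (77.8%) and 35 of the other 78 (44.9%).

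RE1 is the element bound by REST, a repressor of neuronal genes outside neurons. Its core was searched on both strands within 10 kb of the starts as the letters TTCAGCACC, then 2 free letters, then GGACAG, with at most 2 mismatches. A match was found for 14 Kcn genes (14.6%), beside 10.9% of all protein-coding genes. The 3 matches with 0 mismatches are shown since they are at genes with a peak, in NCBIM37 coordinates, with the searched letters in capitals.
Kcnab2, chr4:151798652-151798668, minus strand: TTCAGCACCcaGGACAG
Kcnh2, chr5:23863431-23863447, minus strand: TTCAGCACCtcGGACAG
Kcnh4, chr11:100620325-100620341, minus strand: TTCAGCACCctGGACAG

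The Kcnab2 match lay 1294 bp downstream of a start inside the gene. It was 3824 bp from the nearest DOP peak and 13018 bp from the nearest SST peak. The Kcnh2 match lay 6017 bp upstream, 5600 and 6066 bp from the nearest peaks. The Kcnh4 match lay 684 bp downstream of a start inside the gene. It was 11802 bp from the nearest DOP peak and 2780 bp from the nearest SST peak. None of the 3 was inside a peak, and a match is not evidence of binding.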

How the data were processed

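H3K9ac ChIP-seq was made from 2 DOP and 2 SST samples of Q111 cells, with 1 IgG library. Per the labels the build was mm9. The submitters' processing notes name BWA 0.7.10, while the study's methods name Bowtie 2. The authors called peaks with GPS/GEM and deposited 1 list per condition, with a centre, a 200 bp region and a score for each peak. The lists hold 34286 (DOP) and 33355 (SST) peaks, more than the study's methods report for treated and untreated cells. The reason is not given in the sources used here. How replicates and IgG entered the call, its threshold and what the score measures are not given in the sources used here. The deposited lists hold no read counts, so depth is unknown and replicates cannot be compared.

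Peak centres were assigned to GENCODE vM1 protein-coding genes within 10 kb of any transcript start. Peaks overlapping by 1 bp were shared. Sequence was read from NCBIM37. Python 3.11.15, numpy 2.4.6, pandas 2.3.3, scipy 1.17.1 and matplotlib 3.10.9 were used. The rules were tested on simulated data.

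The members, gene lists and rules were chosen with earlier results of these data known. Named genes were those with a peak in 1 list, the 10 with the highest percentile, the 5 with most peaks, those differing by 2 peaks or more, and a fixed set of striatal and glial channels. Values of other genes were added after they were seen, and some genes and 1 sequence are not reported here. The sodium list was widened by Scn2a1 after values were seen. Alternatives varied the window, the peaks used, the overlap rule and the gene records. Columns left unused because they name other samples numbered 0.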

Additional observations from a re-analysis of the deposited data

How the results depend on the processing

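Of 81 alternative counts, 45 stayed within 1.5 times the reported count and 36 did not. Within 1 kb of a start, 14 genes had a DOP peak, 14 an SST peak and 10 both, 4 had an SST peak alone, 5 had more in DOP and 6 more in SST, and the peaks numbered 22 and 24. Within 5 kb, 16 had an SST peak, 11 both, 6 more in DOP and 7 more in SST, with 29 and 31 peaks. On the upstream side alone the SST peaks numbered 37. With the top 50% of each list, 9 genes had a DOP peak, 8 an SST peak and 8 both, 1 had a DOP peak alone and 0 an SST peak alone, 3 had more in DOP and 2 more in SST, the peaks numbered 17 and 16, and those of 1 list 0 and 1. With scores of at least 100, 1 gene had an SST peak alone, 3 had more in SST, 6 of 42 SST peaks were of 1 list and 8 genes had an SST own-promoter peak. With peaks nearest to a Kcn start alone, 11 genes had both, with 28 and 31 peaks. The peaks of 1 list numbered 10 in SST when centres within 1 kb counted as shared, and 10 (DOP) and 8 (SST) as chained clusters, of 34 and 32 clusters. The cause was not tested, beyond the smaller windows and fewer peaks that these settings use. Under the window, upstream, outermost-start, top 50% and minimum-score settings, the share of all genes with a peak was between 1.98 and 5.4 times that of the Kcn genes. The settings with one record per symbol, own-promoter peaks within 500 bp or with a minimum score, and the sodium list without Scn2a1 were chosen after seeing the data.

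No paired analysis was possible because the deposited lists name no replicate, and likewise no replicate was left out. The lists do not show acetylation below the threshold of the call.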
